A study of Mus musculus with 8 samples.

Results

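The genes described here are 38 chromatin modifiers that lie away from the chromosome 4 segment of Hdac1, a histone deacetylase gene whose signal was lower in FD samples. They were the genes of the histone deacetylases other than Hdac1, of Polycomb and heterochromatin proteins, and of enzymes that add or remove methyl groups on histones and DNA. A probe belonged to them if it was no control and carried 1 of the 38 symbols as its gene name, which gave 56 of the 55681 probes on the array. Of these, 54 were well above background on all 8 arrays and were tested, among 29432 tested probes in all, and each of the 38 genes kept at least 1 tested probe. The 2 untested probes belonged to Hdac9 and Dnmt3b.

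Lumbar dorsal root ganglia (DRGs, made up of sensory neurons, satellite glia, Schwann cells, vessels and immune cells) were taken at L3 to L5 from male mice of 20 to 24 weeks. The FD group consisted of α-galactosidase A-deficient, α-Gal A(-/0), mice on a C57BL/6 background, a model of Fabry disease, in which a lysosomal enzyme is missing and glycosphingolipids accumulate. The wildtype group consisted of C57BL/6J mice. Each group had 4 samples, each pooled from 2 mice, so that 8 mice stood behind each group. The mice came from separate inbred colonies, so genotype and colony cannot be told apart. Values are log2 signals after quantile normalization, log2 fold changes are FD minus wildtype, and errors of fold changes are standard errors (SE).

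The 8 samples were correlated at 0.9905 to 0.9978 across probes. Wildtype sample 1 stood apart from the other wildtype samples, and limma's array weights gave it 0.243, the lowest of the 8. It was the wildtype sample farthest from its group mean in 35 of the 54 tested probes described here (64.8%), against 44.6% of all tested probes. With and without this sample, the Ezh2 probe was the only 1 of the 38 genes' probes that was called. The single probe of Gla, the gene of α-galactosidase A, did not separate the genotypes (log2 fold change -0.03, limma adjusted p = 0.879). Its place relative to the disrupted part of the gene is not given in the sources used here, so it does not check the labels.

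Chromatin modifiers set how tightly DNA is packed and which genes can be read. Histone deacetylases remove acetyl groups and work mostly inside complexes such as Sin3 and NuRD. Polycomb repressive complex 2 (PRC2) methylates histone H3 at lysine K27 through Ezh1 or Ezh2, heterochromatin protein 1 binds H3 methylated at K9, and macroH2A histones and DNA methylation accompany silent chromatin. In adult sensory ganglia the neurons no longer divide, and several of these proteins, Ezh2 and Dnmt1 among them, are known for their high levels in dividing cells.

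In FD samples 1 of the 54 tested probes passed the test, that of Ezh2, and it was lower. That is 1.85% of the probes, while 3.07% of all tested probes were called at an adjusted p under 0.05 in limma, 1.96% higher and 1.11% lower in FD. No probe of the 38 genes was called higher. Under the thresholds that the study used (p up to 0.01 before adjustment, fold change 1.2 or more), 3 of the 54 probes passed (5.56%), those of Ezh2, H2afy and Cbx3, all lower, against 6.03% of all tested probes. At an unadjusted p under 0.05 alone there were 7 of the 54 probes, 3 higher and 4 lower, against 17.6% of all tested probes. Counting both directions, the shares of these probes were under those of the whole array by each of these rules, while the 1 lower probe, 1.85% of the 54, stood against the 1.11% called lower on the whole array.

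The 4 FD and 4 wildtype values did not overlap for 6 of the 54 probes (11.1%), against 13.4% of all tested probes. These 6 probes belonged to Ezh2, H2afy with 2 probes, Cbx3, Hdac2 and Suz12. The median log2 fold change over the 54 probes was -0.05, against 0.02 over all tested probes, and 37 of them (68.5%) had a negative value, against 44.8% of all tested probes. Without wildtype sample 1 the median over the 54 probes was -0.01, and 32 of them (59.3%) were negative, against 44.2% of all tested probes. The median size of the log2 fold change, without its sign, was 0.08, against 0.10 over all tested probes.

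The precision of these probes was a little better than that of the array. The 95% interval of the log2 fold change reached 0.18 to each side at the median, against 0.20 over all tested probes. Of the 53 probes that were not called, 51 had an interval that lay within a 1.5-fold change in either direction, and 26 lay within a 1.2-fold change. Their log2 fold changes ran from -0.47, a probe of Cbx1, to 0.27, a probe of Hdac8, and 32 of them were smaller than 0.1 in size.

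**Figure D1:**
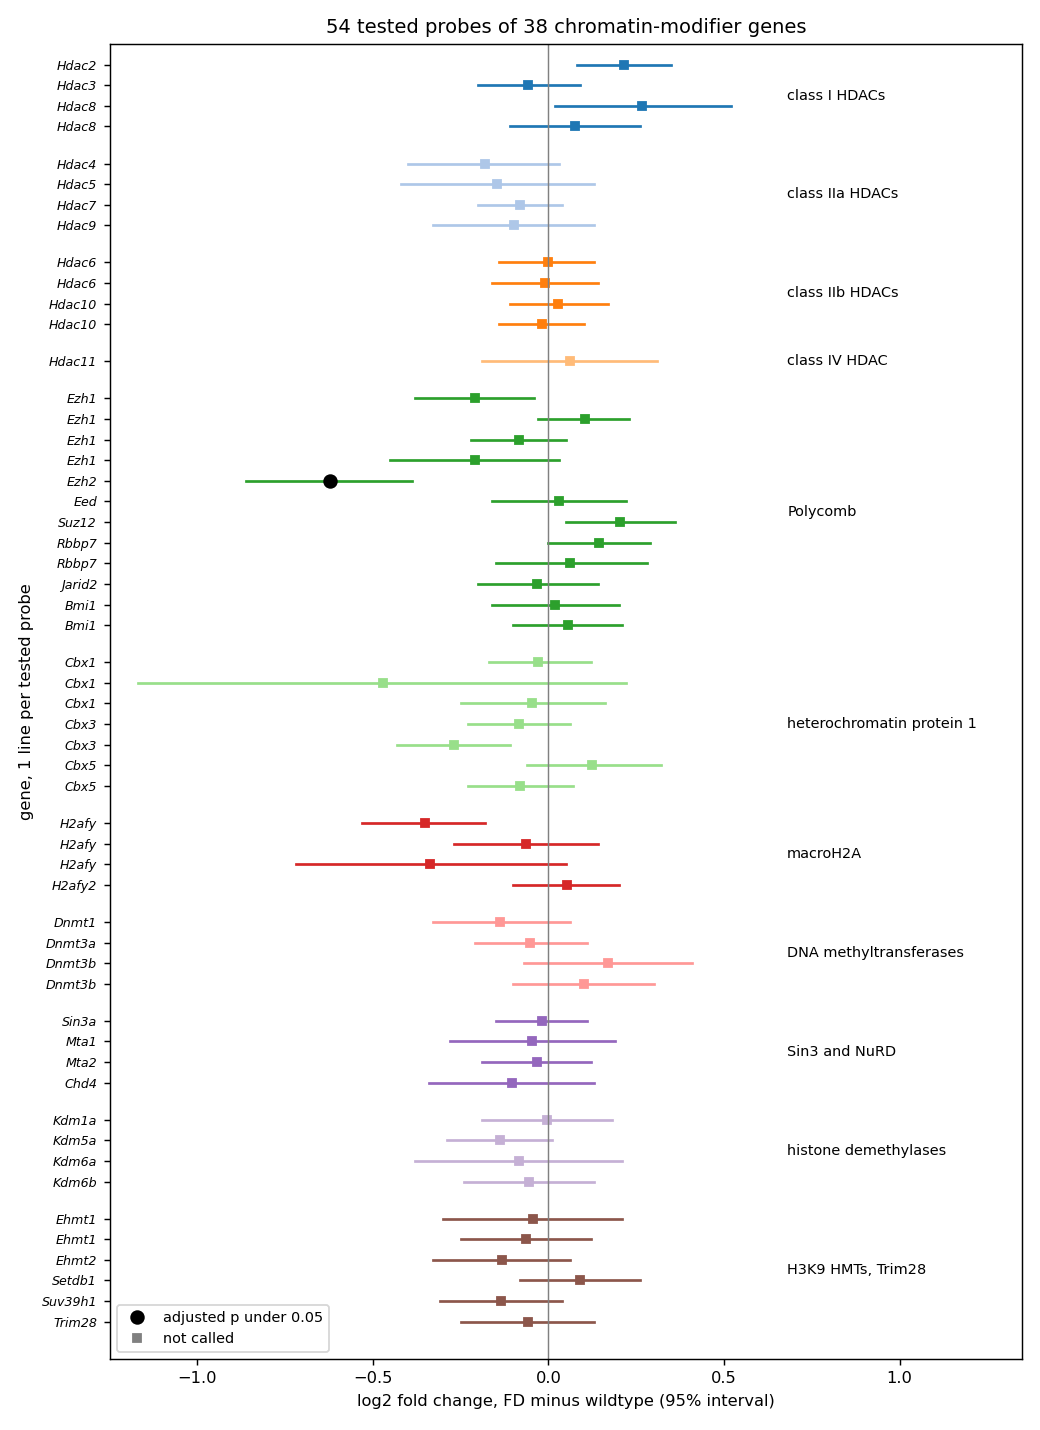
The log2 fold change (FD minus wildtype, x axis) of each of the 54 tested probes with its 95% interval from limma, grouped by the role of the gene. The Ezh2 probe, the black circle at -0.62, is the only 1 with an adjusted p under 0.05, and the widest interval, from -1.17 to 0.22, belongs to a probe of Cbx1.

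The promoters of the 5 genes whose groups did not overlap are shown here to set a motif of proliferation-linked genes beside their values. Each window runs from 250 bases before to 50 bases after the gene's start and is taken from RefSeq (GRCm38.p6), in the direction of the gene. Capitals mark matches to the binding motif of E2F, the transcription factors that drive genes of DNA replication, searched as TTTCCCGC, TTTCGCGC, TTTGCCGC and TTTGGCGC on both strands. The windows are those of Ezh2 (chr6:47594981-47595280, minus strand), Suz12 (chr11:79992856-79993155, plus strand), Cbx3 (chr6:51470366-51470665, plus strand), Hdac2 (chr10:36974294-36974593, plus strand) and H2afy (chr13:56135501-56135800, minus strand, listed there as Macroh2a1).
Ezh2: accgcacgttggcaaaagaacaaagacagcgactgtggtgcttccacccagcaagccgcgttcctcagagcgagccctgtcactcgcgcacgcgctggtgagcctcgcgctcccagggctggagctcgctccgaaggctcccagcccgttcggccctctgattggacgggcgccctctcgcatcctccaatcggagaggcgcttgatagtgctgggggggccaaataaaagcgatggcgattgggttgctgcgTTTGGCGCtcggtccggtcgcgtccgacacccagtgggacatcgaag
Suz12: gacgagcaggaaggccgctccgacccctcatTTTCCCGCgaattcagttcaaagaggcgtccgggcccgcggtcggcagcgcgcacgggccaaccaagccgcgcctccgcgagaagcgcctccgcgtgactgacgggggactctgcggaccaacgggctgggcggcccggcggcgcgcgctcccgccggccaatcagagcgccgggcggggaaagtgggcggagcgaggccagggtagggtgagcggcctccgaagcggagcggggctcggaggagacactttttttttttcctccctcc
Cbx3: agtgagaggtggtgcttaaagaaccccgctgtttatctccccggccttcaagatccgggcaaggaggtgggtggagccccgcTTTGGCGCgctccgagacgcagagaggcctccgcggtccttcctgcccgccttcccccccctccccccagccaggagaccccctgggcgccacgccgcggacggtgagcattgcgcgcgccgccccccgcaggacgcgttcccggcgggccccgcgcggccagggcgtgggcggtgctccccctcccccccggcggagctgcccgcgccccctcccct
Hdac2: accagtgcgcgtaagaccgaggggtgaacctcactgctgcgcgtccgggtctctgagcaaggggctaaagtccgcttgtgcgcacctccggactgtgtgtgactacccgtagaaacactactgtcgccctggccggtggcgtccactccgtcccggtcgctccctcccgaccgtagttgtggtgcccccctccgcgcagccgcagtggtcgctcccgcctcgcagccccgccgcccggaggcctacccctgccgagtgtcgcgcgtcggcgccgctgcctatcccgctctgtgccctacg
H2afy: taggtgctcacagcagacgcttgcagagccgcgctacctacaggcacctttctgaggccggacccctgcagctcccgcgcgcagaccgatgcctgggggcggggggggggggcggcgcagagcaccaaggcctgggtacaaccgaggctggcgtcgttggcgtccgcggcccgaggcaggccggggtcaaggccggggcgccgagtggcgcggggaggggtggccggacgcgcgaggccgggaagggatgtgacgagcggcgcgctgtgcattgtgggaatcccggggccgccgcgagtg

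A match was found in the windows of Ezh2, where it begins 3 bases after the gene's start, of Suz12, 219 bases before it, and of Cbx3, 168 bases before it. Cbx3 has a second listed start (chr6:51471002-51471301), whose window held no match. The windows of Hdac2 and H2afy held none of the 4 motifs. Of the 34 genes with a window in the table, 5 held a match (14.7%), the others being Dnmt1 and Suv39h1, against 2.6% of all 27025 genes there. Counted by window, 5 of 49 held a match (10.2%), against 2.26% of all windows. Each of the 4 motifs holds a CG pair, and the windows of the 34 genes were richer in CG pairs, with a median of 24, against 7 over all windows. These shares therefore come from unlike windows, and an excess of matches beyond the CG content was not tested. Of the 5 genes with a match, Ezh2 was lower in FD samples and the other 4 were not called. Cbx3 had log2 fold changes of -0.27 and, on its brighter probe, -0.08. The values were -0.14 for Dnmt1, -0.14 for Suv39h1 and 0.20 for Suz12.

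Ezh2 is the catalytic subunit of PRC2 in dividing and developing cells. Its probe (mm9 chr6:47480307-47480366) had log2 signals of 7.71, 7.63, 7.52 and 7.64 in FD samples 1 to 4, against 8.08, 8.38, 8.06 and 8.48 in wildtype samples 1 to 4. The highest FD sample lay below the lowest wildtype sample. The means were 7.63 ± 0.08 in FD samples and 8.25 ± 0.21 in wildtype samples (SD, n = 4 each), a log2 fold change of -0.62 (SE 0.10, limma adjusted p = 0.0167) with a 95% interval from -0.86 to -0.39. Signal was 1.54-fold higher in wildtype samples.

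The Ezh2 call rested on a narrow margin. Within each row of the slide the value kept its sign, at -0.46 in row 1, which held FD samples 1 to 3 and wildtype sample 1, and -0.66 in row 2, which held FD sample 4 and wildtype samples 2 to 4. With the slide row as a block the adjusted p was 0.0525, and without FD samples 2, 3 or 4 in turn it was 0.0585, 0.0564 and 0.0510. Without wildtype sample 1 the call held.

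Fewer cells of a type and less RNA per cell cannot be told apart in these bulk samples. Some markers of dividing cells were also lower in FD samples, with 1 of 3 tested genes called lower on its brightest probe. That gene was Cdk1, whose tested probe was dim. Of 6 such genes, 3 were well above background on all 8 arrays, and the mean log2 signal of these 3 was 6.47 to 6.58 in FD samples, against 6.72 to 6.92 in wildtype samples. Their part in the Ezh2 result was not tested.

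Mki67, the gene of the proliferation antigen Ki-67, had 2 tested probes. The first had log2 signals of 8.77, 8.67, 8.95 and 9.04 in FD samples, against 9.10, 9.36, 9.49 and 9.30 in wildtype samples, with a log2 fold change of -0.46 (SE 0.11, limma adjusted p = 0.0605). The second had 8.27, 7.98, 8.27 and 8.47 in FD samples, against 8.85, 8.92, 9.09 and 8.72 in wildtype samples, and fell by 0.64 on the log2 scale (SE 0.12, limma adjusted p = 0.0230). Neither probe overlapped between the groups. Cdk1, the kinase of mitotic entry, had 4.76, 4.97, 4.85 and 4.79 in FD samples, against 5.07, 5.40, 5.26 and 5.44 in wildtype samples. Its only tested probe was called lower (log2 fold change -0.45, limma adjusted p = 0.0354). This probe was dim, with means of 4.84 in FD samples and 5.29 in wildtype samples. The other Cdk1 probes were not well above background on any array. Among them, a probe at overlapping bases had means of 2.69 in FD samples and 2.89 in wildtype samples, a level that does not measure the gene. Ccnb1, the cyclin partner of Cdk1, was not called (0.14, limma adjusted p = 0.713), and its groups overlapped. The probes of Top2a and Aurkb, and of the mitotic checkpoint gene Bub1, were not well above background on all arrays. Their means in FD samples, against wildtype samples, were 4.87 against 4.93, 2.76 against 2.99 and 4.97 against 4.94. Untested Ccnb1 probes had 3.23 against 2.90 and 2.83 against 3.42. Some probes at background level were thus also lower in FD samples, and the part of background in the Cdk1 call was not tested.

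**Figure D2:**
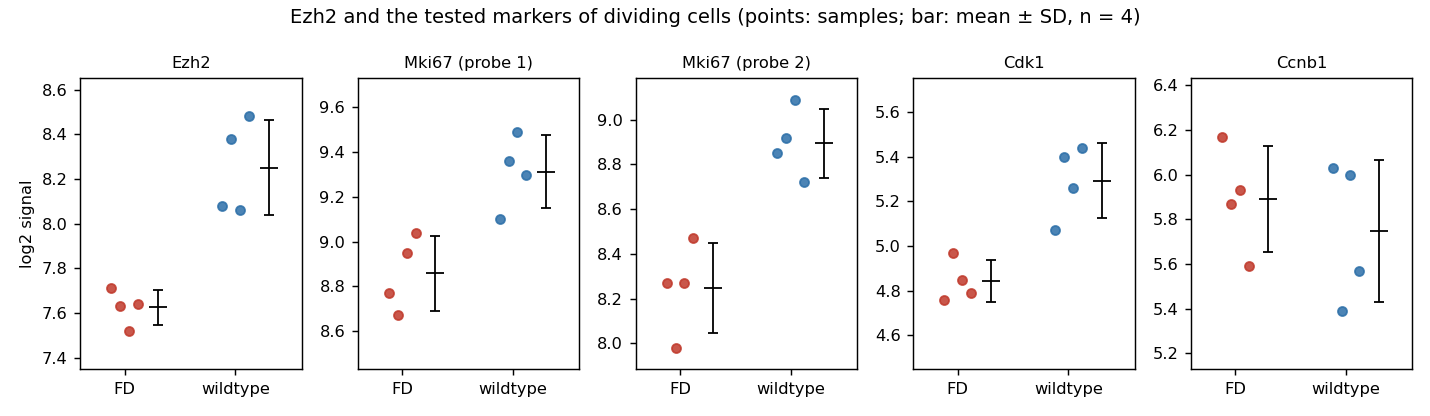
Log2 signal (y axis) of Ezh2 and of the tested probes of 3 dividing-cell markers, with the 4 FD samples left of the 4 wildtype samples and the mean ± SD (n = 4) beside each group. FD samples lie below all wildtype samples for Ezh2, both Mki67 probes and Cdk1, while the groups overlap for Ccnb1.

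Other probes near Ezh2 on chromosome 6 also differed. Within 1 Mb of the Ezh2 probe, 44 other probes of 30 names were tested and 5 of each were called, 11.4% of the probes against 3.07% of all tested probes. The nearest were 2 probes that the array names only by a position, 121.4 kb away, on opposite strands of nearly the same bases (mm9 chr6:47601669-47601728 forward and chr6:47601672-47601731 reverse). The reverse probe had log2 signals of 6.57, 5.93, 5.98 and 6.08 in FD samples, against 8.20, 7.89, 7.47 and 8.09 in wildtype samples (log2 fold change -1.77, limma adjusted p = 0.00159). The forward probe had 6.71, 6.77, 6.68 and 6.66 in FD samples, against 7.72, 7.50, 7.04 and 7.80 in wildtype samples (-0.81, limma adjusted p = 0.0268). Both were lower in all 4 FD samples than in any wildtype sample. Of 3 further probes there with the same names, 1 had non-overlapping groups as well, and none was called.

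On the other side of Ezh2, Cntnap2, a neuronal cell adhesion gene, was called higher on 1 of 3 tested probes (log2 fold change 0.33, limma adjusted p = 0.0345). Between Cntnap2 and Ezh2, 9430013L14Rik, 65.8 kb away, had non-overlapping groups and was not called (-0.37, limma adjusted p = 0.0592), and Cul1, a scaffold of ubiquitin ligases 9.5 kb away, was at -0.08 (limma adjusted p = 0.606). A pair of zinc finger genes farther off were called in opposite directions, Zfp783 higher (0.34, limma adjusted p = 0.0316) and Zfp467 lower on 1 of 4 tested probes (-0.38, limma adjusted p = 0.00779). The part of these neighbours in the Ezh2 result was not tested. Of the 38 genes, 14 had no called name within 1 Mb, 21 had 1 to 4, and 3 had 5 or more, Ezh2, Mta1 and Ehmt2. Mta1 and Ehmt2 were themselves not called, and 12.5% and 5.97% of the other tested probes around them were called.

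**Figure D3:**
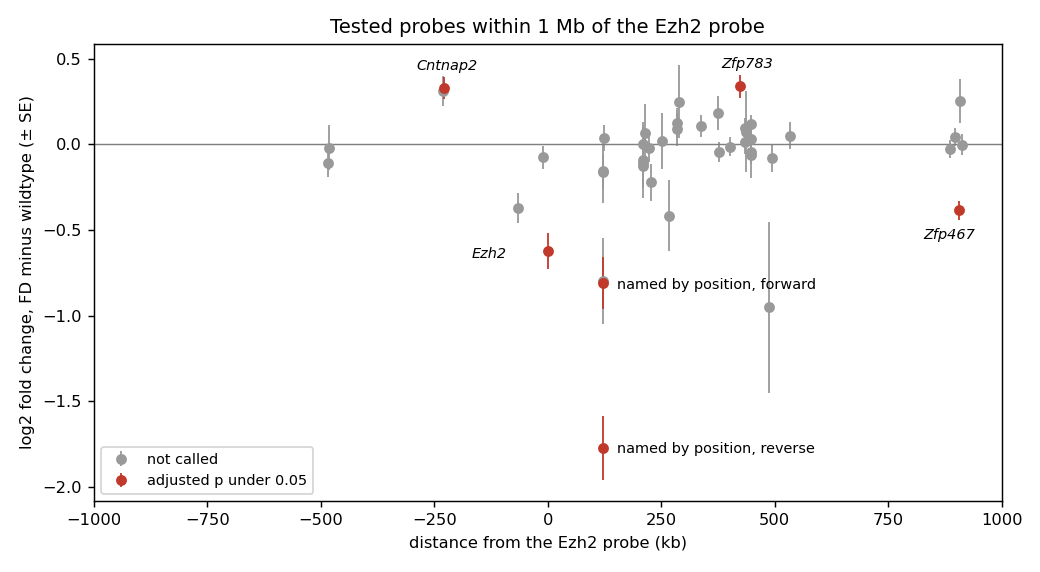
The log2 fold change (FD minus wildtype, ± SE from limma, y axis) of the 45 tested probes within 1 Mb of the Ezh2 probe, by distance from it in kb. The 6 called probes are named, with the lowest value, -1.77, at a probe the array names by its position 121.4 kb from Ezh2.

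No other Polycomb gene was called. Suz12, which holds PRC2 together, had log2 signals of 10.91, 10.90, 10.82 and 10.81 in FD samples, against 10.51, 10.68, 10.78 and 10.65 in wildtype samples. All FD samples were above all wildtype samples, but by a margin that did not pass the test (log2 fold change 0.20, SE 0.07, limma adjusted p = 0.166). Within slide rows 1 and 2 the value was 0.36 and 0.11. Eed, the subunit that reads the methyl mark, was at 0.03 (limma adjusted p = 0.886), with an interval from -0.16 to 0.22. Rbbp7, a histone-binding subunit that PRC2 shares with deacetylase complexes, was at 0.14 and 0.06 on its 2 probes. Jarid2, which helps bring PRC2 to its targets, was at -0.03, and Bmi1, a subunit of Polycomb repressive complex 1, was at 0.02 and 0.06.

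Ezh1, the catalytic subunit that prevails in non-dividing cells, had 4 tested probes that did not agree in sign, at -0.21, 0.10, -0.08 and -0.21, none of them called. The lowest adjusted p among them was 0.193 in limma. The brightest Ezh1 probe had 14.36, 14.33, 14.51 and 14.43 in FD samples, against 14.53, 14.50, 14.45 and 14.49 in wildtype samples, so that the groups overlapped.

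Among the deacetylases no probe was called. Class I, to which Hdac1 belongs, was represented by Hdac2, Hdac3 and Hdac8. Hdac2, the close relative that forms dimers with Hdac1 in most of its complexes, had log2 signals of 7.67, 7.61, 7.63 and 7.55 in FD samples, against 7.29, 7.40, 7.49 and 7.43 in wildtype samples. Every FD sample was above every wildtype sample, and the log2 fold change of 0.21 (SE 0.06, 95% interval 0.08 to 0.35) did not pass the test (limma adjusted p = 0.110). Within the slide rows it was 0.35 and 0.11.

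Hdac1 itself (mm9 chromosome 4), which is not 1 of the 38 genes, was lower on all 3 of its probes, with log2 fold changes of -0.85, -1.43 and -2.20 and limma adjusted p-values of 0.000427, 9.07e-05 and 4.32e-07. Its probes had non-overlapping groups, for example 9.08, 9.03, 9.19 and 9.23 in FD samples against 11.31, 11.35, 11.30 and 11.35 in wildtype samples on the last of them. Rbbp4, the relative of Rbbp7 that lies near Hdac1, was called on 1 of 2 probes (-0.90, limma adjusted p = 0.00941), while its other probe was at -0.06 (limma adjusted p = 0.765). Kdm1a, the only 1 of the 38 genes on chromosome 4, lay 6.91 Mb from Hdac1 and was at -0.01 (limma adjusted p = 0.982).

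Hdac3, the deacetylase of the nuclear receptor corepressor complexes, was at -0.06 (limma adjusted p = 0.683). Hdac8, which deacetylates cohesin, was at 0.27 on a dim probe (limma adjusted p = 0.249) and at 0.08 on its other probe. The 4 class IIa genes, whose proteins shuttle between nucleus and cytoplasm in response to calcium signals, all had negative values, from -0.18 to -0.08, none of them called. Hdac4 had the lowest, with log2 signals of 10.13, 10.06, 9.94 and 9.89 in FD samples, against 10.37, 9.96, 10.18 and 10.22 in wildtype samples. The groups overlapped through wildtype sample 2 (SE 0.10, limma adjusted p = 0.362), and without wildtype sample 1 the value was -0.12. For Hdac5, wildtype sample 1 was at 13.64, while the other wildtype samples were between 13.05 and 13.20, and the value of -0.15 was -0.02 without it.

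The class IIb and class IV genes had values close to 0. Hdac6, a tubulin deacetylase of the cytoplasm that matters for axonal transport, had 2 tested probes with log2 fold changes of -0.01 or closer to 0, and the wider of their intervals was -0.16 to 0.14. Hdac10, a polyamine deacetylase, had 11.19, 11.18, 11.31 and 11.23 in FD samples, against 11.29, 11.24, 11.12 and 11.15 in wildtype samples, a difference of 0.03 (SE 0.06, limma adjusted p = 0.845). Hdac11, the single class IV enzyme, had 9.96, 10.06, 9.78 and 9.89 in FD samples, against 10.13, 9.62, 9.78 and 9.92 in wildtype samples, a difference of 0.06 (SE 0.11, limma adjusted p = 0.815). For both genes the groups overlapped. Without wildtype sample 1 the values were 0.06 for Hdac10 and 0.15 for Hdac11.

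**Figure D4:**
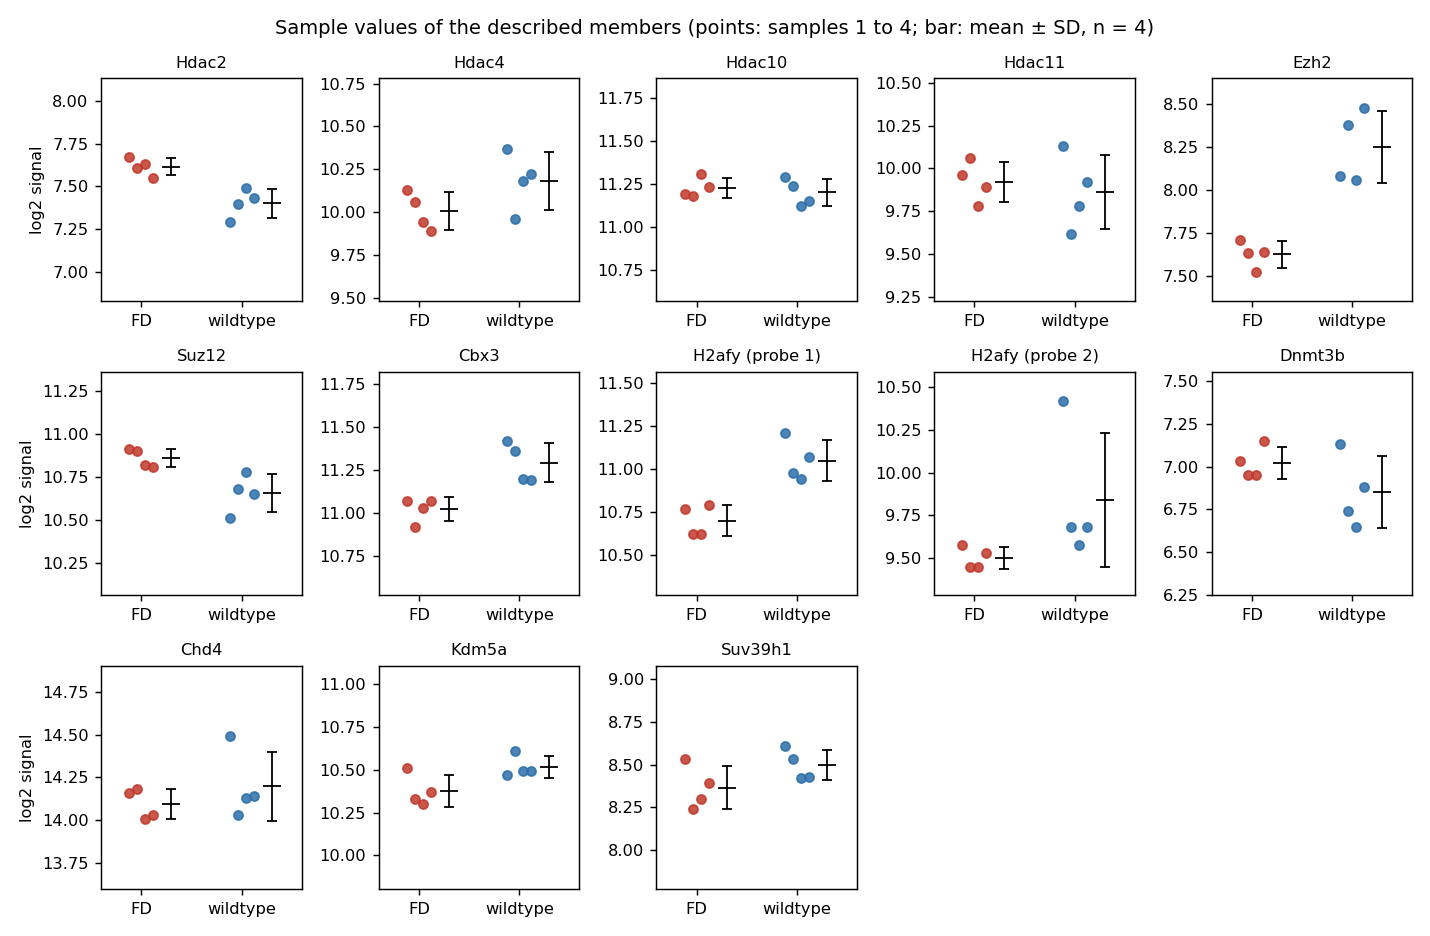
Log2 signal (y axis, 1.3 units high in every panel) of 13 probes of 12 genes, with the 4 FD samples left of the 4 wildtype samples and the mean ± SD (n = 4) beside each group. FD samples lie wholly below wildtype samples for Ezh2, Cbx3 and both H2afy probes and wholly above them for Hdac2 and Suz12.

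MacroH2A1, encoded by H2afy, is a histone variant with a large extra domain that is found in silent chromatin. Its brightest probe (mm9 chr13:56184528-56184587) had log2 signals of 10.77, 10.62, 10.62 and 10.79 in FD samples, against 11.21, 10.98, 10.94 and 11.07 in wildtype samples. All FD samples were below all wildtype samples, and the log2 fold change of -0.35 (SE 0.08, 95% interval -0.53 to -0.18) missed the threshold narrowly (limma adjusted p = 0.0505). Within the slide rows it was -0.54 in row 1, where wildtype sample 1 was the only wildtype sample, and -0.21 in row 2. Of 17 alternatives it passed in 3, normexp background correction (limma adjusted p = 0.0383), array weights (0.0287) and the deposited normalized values (0.0499), and not in the other 14, where the adjusted p went up to 0.152.

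The other 2 H2afy probes were not called. The first of them had 9.58, 9.45, 9.45 and 9.53 in FD samples, against 10.42, 9.68, 9.58 and 9.68 in wildtype samples, and its value of -0.34 (SE 0.17, limma adjusted p = 0.342) was -0.14 without wildtype sample 1. Within slide rows 1 and 2 it was -0.93 and -0.11. The remaining probe was at -0.06 (limma adjusted p = 0.75). The 3 probes carry different transcript identifiers in the file. H2afy2, the gene of macroH2A2, was at 0.05 (limma adjusted p = 0.717).

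Cbx3 encodes HP1 gamma, which is found at active genes as well as in heterochromatin. On 1 probe (mm9 chr6:51431757-51431816) it had log2 signals of 11.07, 10.92, 11.03 and 11.07 in FD samples, against 11.42, 11.36, 11.20 and 11.19 in wildtype samples. The groups did not overlap, and the log2 fold change of -0.27 (SE 0.07, 95% interval -0.43 to -0.11) did not pass the test (limma adjusted p = 0.0868). Within slide rows 1 and 2 it was -0.41 and -0.18. The second and brighter Cbx3 probe was at -0.08 (limma adjusted p = 0.527). Cbx5, which encodes HP1 alpha, was at 0.12 and -0.08 on its 2 probes. Cbx1, which encodes HP1 beta, was at -0.03 and -0.05 on 2 probes and at -0.47 (SE 0.31) on the remaining one, where FD sample 3 was at 5.61 and the other FD samples were between 6.86 and 7.08.

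Of the 38 genes, 12 had more than 1 tested probe, with 28 probes between them. The probes of 9 of these genes had the same sign, and the log2 fold changes of a gene's probes lay 0.13 apart at the median and up to 0.44 apart, for Cbx1. For comparison, the median size of the difference between the groups was 0.08 over the 54 probes.

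The DNA methyltransferases were not called. Dnmt3b, a de novo methyltransferase, had 7.03, 6.95, 6.95 and 7.15 in FD samples, against 7.13, 6.74, 6.65 and 6.88 in wildtype samples, where wildtype sample 1 lay among the FD samples. The difference was 0.17 (SE 0.11, limma adjusted p = 0.448), and it was -0.15 within slide row 1, 0.40 within row 2 and 0.26 without wildtype sample 1 (limma adjusted p = 0.125). Its other tested probe was at 0.10. Dnmt1, which copies methylation after replication, was at -0.14 (limma adjusted p = 0.452), and Dnmt3a, the main de novo enzyme of adult neurons, at -0.05 (limma adjusted p = 0.742).

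The 4 genes of the Sin3 and NuRD complexes had values from -0.10 to -0.02, whose shared sign rested on wildtype sample 1. Chd4, the remodelling ATPase of NuRD, had 14.16, 14.18, 14.01 and 14.03 in FD samples, against 14.49, 14.03, 14.13 and 14.14 in wildtype samples. Wildtype sample 1 was the highest and the rest overlapped (log2 fold change -0.10, SE 0.10, limma adjusted p = 0.635). Without wildtype sample 1 the value was -0.01. Sin3a, the scaffold of its complex, was at -0.02, and the NuRD subunits Mta1 and Mta2 were at -0.05 and -0.03, or at 0.04 and 0.01 without wildtype sample 1.

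The 4 histone demethylase genes had values from -0.14 to -0.01. Kdm5a, which removes methyl groups from H3 at K4, had 10.51, 10.33, 10.30 and 10.37 in FD samples, against 10.47, 10.61, 10.49 and 10.49 in wildtype samples. Only FD sample 1 reached into the wildtype range (log2 fold change -0.14, SE 0.07, limma adjusted p = 0.320). Kdm6a and Kdm6b, which remove the mark that PRC2 sets, were at -0.08 (limma adjusted p = 0.778), or 0.04 without wildtype sample 1, and at -0.06 (limma adjusted p = 0.760).

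Among the H3K9 methyltransferases, Suv39h1, which works in constitutive heterochromatin, had 8.53, 8.24, 8.30 and 8.39 in FD samples, against 8.61, 8.53, 8.42 and 8.43 in wildtype samples. The groups overlapped through FD sample 1 (log2 fold change -0.14, SE 0.08, limma adjusted p = 0.410). Ehmt2 and its partner Ehmt1, which place the lower methylation states, were at -0.13 for Ehmt2 and at -0.06 and -0.04 on the 2 probes of Ehmt1. Setdb1, which silences transposons together with Trim28, was at 0.09 (limma adjusted p = 0.572), and Trim28 was at -0.06 (limma adjusted p = 0.760).

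Further chromatin genes were grouped in 7 lists of 128 genes, of which 127 had a tested probe. Hdac1 and Rbbp4, described above, were counted among the partners of deacetylases. In limma, on the brightest probe of each gene, 1 was called lower, Hdac1, and 0 were called higher (0.787%, against 3.07% of all tested probes). At an unadjusted p under 0.05 there were 14 of the 127 (11%), 8 higher and 6 lower, against 17.6% of all tested probes. The median log2 fold change was -0.06 over the 29 partners of deacetylases, 0.10 over the 7 sirtuins, -0.01 over the 13 histone acetyltransferases, -0.01 over 22 other Polycomb genes, -0.07 over 20 other heterochromatin and DNA methylation genes, 0.01 over 17 other demethylases and -0.01 over 19 methyltransferases of active chromatin. The median over all tested probes was 0.02. Kat6b, an acetyltransferase, was called higher on 1 probe that was not its brightest (0.58, limma adjusted p = 0.0476) and was at -0.32 on its brightest (limma adjusted p = 0.246). Phf19, a PRC2 accessory subunit, was at 0.39 (limma adjusted p = 0.109), and Pcgf6, a subunit of a PRC1 variant, at 0.30 (limma adjusted p = 0.0813).

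**Figure D5:**
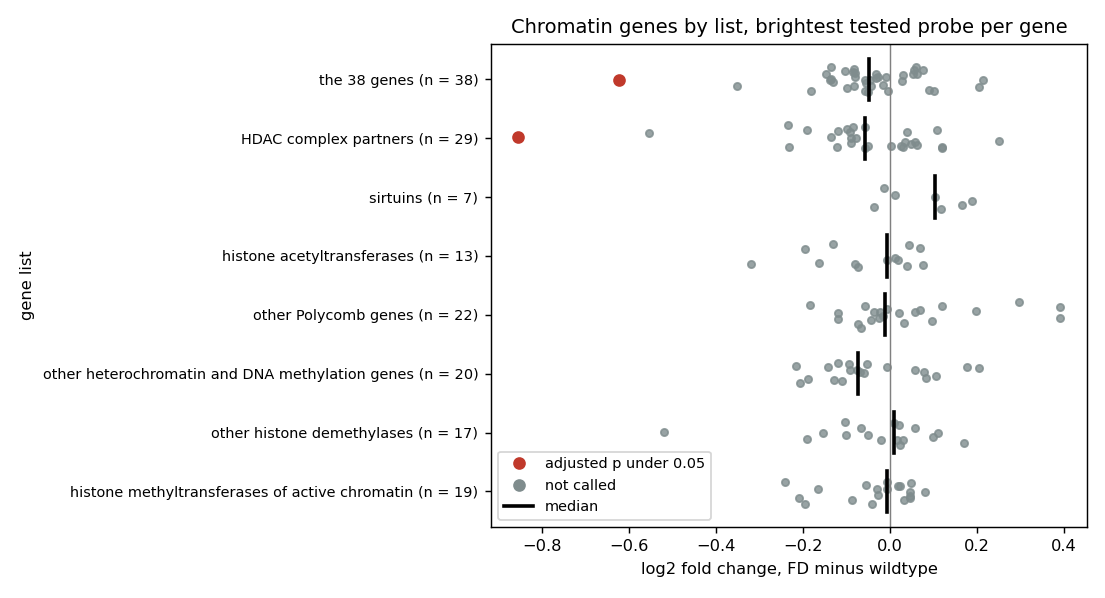
The log2 fold change (FD minus wildtype, x axis) of each gene on its brightest tested probe, for the 38 genes and for 7 lists of other chromatin genes, with the median of each list as a black bar. Red points have an adjusted p under 0.05, Ezh2 at -0.62 and Hdac1 at -0.85.

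Markers of the cell types of the ganglion were read beside these genes. Of 11 sensory neuron markers, Tac1 was called higher (0.34) and Snap25 lower (-0.47), and their median was -0.02. No marker was called among the 6 of satellite glia, the 8 of Schwann cells, the 8 of macrophages, the 8 of endothelium, the 6 of fibroblasts or the 3 tested of 7 for lymphocytes. The endothelial markers were negative in 7 of 8, with a median of -0.21 and a mean log2 signal of 9.47 to 9.54 in FD samples, against 9.59 to 9.75 in wildtype samples. The fibroblast markers were negative in 6 of 6, with a median of -0.08 and a mean log2 signal of 12.26 to 12.50 in FD samples, against 12.44 to 12.64 in wildtype samples. The Schwann cell markers were negative in 8 of 8, with a median of -0.15 and a mean log2 signal of 12.63 to 12.85 in FD samples, against 12.68 to 12.98 in wildtype samples. The macrophage markers were negative in 6 of 8, with a median of -0.05. They included Cd68 at 0.51 (limma adjusted p = 0.0573) and Aif1 at -0.46 (limma adjusted p = 0.233). Satellite glia markers were negative in 3 of 6, with a median of 0.03, and lymphocyte markers in 2 of 3, with a median of -0.08. Aqp4 was called higher (0.38) among the 3 tested of 6 markers of spinal cord glia and muscle. The part of any of these cell types in the values of H2afy, Cbx3 and Ezh2 was not tested.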

How the data were processed

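Gene expression was measured on the 8 arrays of 1 Agilent 8 x 60K mouse slide, in 1 color and 1 scan. According to the file headers, Agilent Feature Extraction 10.7.3.1 subtracted background from the deposited spot intensities and removed spatial trends. The deposited processed table holds log2 values, quantile normalized by the authors in GeneSpring. Here, 93 to 221 outlier spots per array were left out, 0 spots were saturated, the log2 processed signal was averaged per probe, and probes were quantile normalized, following the study's methods. Probes well above background on all 8 arrays (29432) were compared with limma 3.58.1 in R 4.3.3 with Benjamini-Hochberg adjustment, and an adjusted p under 0.05 was a call. In data simulated for this comparison over 29432 probes, 50 probes were changed at each fold size. There, 4% of 1.2-fold, 64% of 1.5-fold and 86% of 2-fold changes were called, and 8.03% of the calls were false. In the data themselves 904 probes were called, and these rates depend on how many probes change, so they need not hold there. Depth has no count here, and 4 samples per group limit precision. The samples are pools of mice, and p-values measure the spread between these pools.

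Members, roles and gene lists were chosen with earlier results of these data known. Sample by sample, the text gives every called gene, every gene with a probe whose groups did not overlap, Hdac2, Ezh2 and the gene with the smallest adjusted p in each role group. Of genes outside the list it names Gla, Hdac1 and Rbbp4, called genes of each list and called neighbours of a called gene, other names having been picked after their values were seen. Positions are mm9, from the files, and gene models of that build were not used here. The E2F motif was chosen after values were seen. Promoters matched 34 of the 38 genes, and their GRCm38.p6 positions cannot be set against mm9. Alternatives were 75th percentile scaling, normexp with offset 50, a filter on 4 of 8 arrays or none, the deposited values, the methods' t-test, a replicate block, the slide row as a block, array weights, leaving out each sample and, for genes, the mean of their probes.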

Additional observations from a re-analysis of the deposited data

Results flagged for a closer look

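In 10 of 112 sets of 4 samples (8.93%), 1 sample lay far from the other 3 by Dixon's criterion, which chance gives in about 1 of 20 sets. Among them, 4 were of wildtype sample 1. On the untested Hdac9 probe wildtype sample 3 was at 7.54, with the others between 4.96 and 5.12, and on the Cbx1 probe FD sample 3 was at 5.61, below 6.86 to 7.08. Wildtype sample 1 was high for H2afy (10.42, against 9.58 to 9.68) and Kdm6a (8.30, against 7.79 to 7.84) and low for Rbbp7 (13.84, against 14.17 to 14.22) and H2afy2 (11.44, against 11.63 to 11.64). The other gaps were smaller. FD sample 1 was high for Ezh1 (7.37) and low for Rbbp7 (12.37), FD sample 2 was high for Hdac9 (9.72), and wildtype sample 2 was high for Kdm5a (10.61). The causes were not tested.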

How the results depend on the processing

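Ezh2 kept its direction under all 17 alternatives, with log2 fold changes from -0.69 to -0.49 and adjusted p-values from 0.0112 to 0.142. It was no longer called under the methods' t-test with adjustment (-0.62), without a filter on dim probes (-0.62, with more probes tested), with the replicate block (-0.62, limma adjusted p = 0.0593) and with the slide row as a block (-0.56). Leaving out 1 sample gave -0.69 to -0.55. Called probes and called genes of the 38 were then 0 under those 4 alternatives, 0 or 1 when 1 sample was left out, and 2 with normexp, with array weights and on the deposited values, where H2afy was added. Over all probes 904 were called, against 2102 with array weights, 556 without a filter, 266 by the methods' t-test, 284 with the replicate block and 414 to 1038 without 1 sample. Samples with the same number did not deviate together (correlations -0.245 to 0.063), so the numbers do not pair them. The median over the 38 genes was -0.05 and ran from -0.068 to -0.014 without 1 sample, and that over probes from -0.050 to -0.006, the nearest to 0 in both cases without wildtype sample 1. Of the described probes that were not called, Hdac10 changed sign with normexp (-0.01) and the slide row block (-0.001), and Hdac11 with the slide row block (-0.038) and without wildtype sample 2 (-0.02 to 0.149 over the samples left out). For the other values the cause of a change was not tested. Signals near background, as of the second Hdac9 and Dnmt3b probes, could not be compared.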
